A study of Mus musculus with 6 samples.

Results

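Lysosomal hydrolases, cathepsins, lysosomal membrane proteins and subunits of the vacuolar proton pump were followed in bone marrow monocytes and macrophages of mice with and without a human leukaemia graft. The members were 35 named genes, found through the symbol, current or older, that the array's annotation gives each probe. Of these, 34 had a named probe, 76 probes in all, and 64 probes of 33 genes passed the filter on low signal, out of 16460 probes of 45281 on the array. Atp6v0c matched no named probe and was not analysed here, and both probes of Tfeb fell below the filter. In all 12 member probes were not tested, 8 of them detected on no array.

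The cells were purified with magnetic beads from the marrow of BALB/c Rag2-/-γc-/- mice, which lack T, B and NK cells and accept human grafts, so control and grafted animals share both deletions. The 3 control mice (A, B and C) had no treatment, and the 3 MEC1 mice (D, E and F) had received an intravenous injection of MEC1 cells, a human line grown from the B cells of chronic lymphocytic leukaemia. All were 11 weeks old and are labelled with day 21, which the design text calls an early stage of leukaemia. RNA of each mouse was read on 1 single-colour Illumina bead array, and the comparison asks how host monocytes and macrophages differ when leukaemic cells are present.

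Median raw intensity was 114 to 131 on control arrays and 70.7 to 87.6 on MEC1 arrays, and 15545 to 16976 probes were detected per array. Log2 raw intensities correlated across probes at Pearson's r of 0.991 to 0.994 between control mice and 0.966 to 0.983 between MEC1 mice. The 3 arrays per group limit the precision. Of 8 monocyte and macrophage markers, 6 had a named probe and all 6 were detected on every array. Their summed normalized intensity was 26275 to 28049 in control mice and 23979 to 27343 in MEC1 mice. At a limma adjusted p under 0.05, 1 of the 6 differed between the groups, where 1.54% of all tested probes did. Markers of other marrow cells were read in both groups. The summed level of 9 neutrophil markers was 89930 to 109047 in control and 106777 to 111912 in MEC1 mice. That of 7 erythroid markers was 65849 to 78554 and 31742 to 56697, and that of 6 eosinophil markers 37856 to 43513 and 42917 to 50877. The erythroid list was thus lower in every MEC1 mouse, lowest in mouse E. B lineage markers were near background in both groups (545 to 584 and 560 to 605 over 6 markers), with Igll1, Ms4a1 and Pax5 detected on no array. Epb42 of the erythroid, Mmp8 of the neutrophil and Ccr3, Il5ra and Siglecf of the eosinophil markers were also detected on no array. Lysosomal genes are used by all of these cells, and the part of cell composition in the results below was not tested.

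Lysosomes break down what phagocytes take up. The vacuolar ATPase pumps protons into the lumen, where acid-dependent cathepsins, glycosidases and lipid-handling proteins act, and LAMP proteins line the membrane. Many of these genes are switched on together by TFEB and related transcription factors, which bind E-box motifs with the core CACGTG in their promoters. Macrophages also secrete lysozyme, an enzyme that cleaves bacterial cell walls, and mice carry a pair of neighbouring lysozyme genes, Lyz1 and Lyz2.

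Promoter sequences from RefSeq (GRCm38.p6, 250 bases before to 50 after each start) were matched by symbol for 29 of the 35 genes, in 36 windows. The palindromic core CACGTG lay in 12 of the 36 windows (33.3%), in 14 of 72 windows of other lysosome genes (19.4%) and in 2349 of all 32851 windows (7.15%). The longer palindrome TCACGTGA, which contains the core, lay in 6 member windows (16.7%) against 8.33% of windows of other lysosome genes and 0.974% of all windows. The 6 windows with TCACGTGA belonged to 3 subunits of the proton pump, cathepsins A and D and the calcium channel Mcoln1. They are shown as 30-base stretches, 5′ to 3′ on the gene's strand, with the motif in capitals.
Atp6v0d1: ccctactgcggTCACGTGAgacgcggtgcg
Atp6v0e: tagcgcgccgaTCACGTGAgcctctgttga
Atp6v1a: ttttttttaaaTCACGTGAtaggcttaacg
Ctsa: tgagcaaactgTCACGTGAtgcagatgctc
Ctsd: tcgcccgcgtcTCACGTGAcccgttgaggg
Mcoln1: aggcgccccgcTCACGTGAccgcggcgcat
These stretches lie at chr8:105566050-105566079 (minus strand), chr17:26676387-26676416 (plus), chr16:44139373-44139402 (minus), chr2:164833749-164833778 (plus), chr7:142387908-142387937 (minus) and chr8:3500462-3500491 (plus). The motif began 4 bases before the start in Atp6v0d1, 132 in Atp6v1a, 99 in Ctsd, 46 in Mcoln1 and, for the first of 2 copies, 13 in Ctsa, and 2 bases after the start in Atp6v0e. A match is a stretch of letters, not a measured binding site. None of these 6 genes had a called probe. With 1 probe a gene, the log2 changes were 0.07, -0.08, 0.37, -1.52, 0.47 and 0.04 in the order listed, 4 above 0 and 2 below. The change of Ctsa rested on mouse D, where its probe was not detected, and was 0.02 without D. The Ctsd probe was dim and detected on only 2 control arrays. The median change was 0.06 over these 6 tested genes and -0.05 over the 21 tested genes whose windows lack the motif.

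The lysozymes were the only members with a called probe, so their promoters are shown too. Over the 250 bases before the start, 200 of 248 aligned bases of Lyz1 and Lyz2 were identical (80.6%). The last 100 bases before each start differ at 8 positions, which are in capitals.
Lyz1: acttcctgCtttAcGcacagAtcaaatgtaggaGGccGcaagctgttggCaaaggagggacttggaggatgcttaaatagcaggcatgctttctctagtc
Lyz2: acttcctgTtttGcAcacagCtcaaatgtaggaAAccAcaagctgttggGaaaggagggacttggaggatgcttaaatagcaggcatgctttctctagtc
They lie on the minus strand at chr10:117292869-117292968 and chr10:117282273-117282372 (GRCm38.p6). Neither window holds CACGTG.

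Few of the lysosomal genes passed the test. With a call defined as an adjusted p under 0.05 in limma, over all tested probes, 2 of the 64 member probes were lower in MEC1 mice and none higher, where 1.54% of all tested probes were called (0.869% higher and 0.668% lower). At an unadjusted p under 0.05 there were 13 of 64 (20.3%), against 3265 of all tested probes (19.8%). Median scaling of the arrays in place of quantiles gave 7 member calls, all lower, among 130 probes called higher and 1981 lower over the array, against 143 and 110. The median log2 change, MEC1 minus control, was -0.08 over the 33 member genes with 1 probe each, with 12 genes above 0 and 21 below, and -0.0041 over all 9089 tested genes, of which 49.5% lay above 0. The groups did not overlap in 17 of the 64 probes, 9 higher and 8 lower, or 26.6%, against 27.7% of all tested probes (14.4% higher and 13.3% lower). The 95% interval of the change lay wholly within 2-fold for 43 of the 64 probes (67.2%) and for 59.9% of all tested probes, while 6 of the 64 (9.38%) changed at least 2-fold against 5.47% of all. In such bulk RNA, fewer cells of a type and less RNA per cell cannot be told apart.

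**Figure D1:**
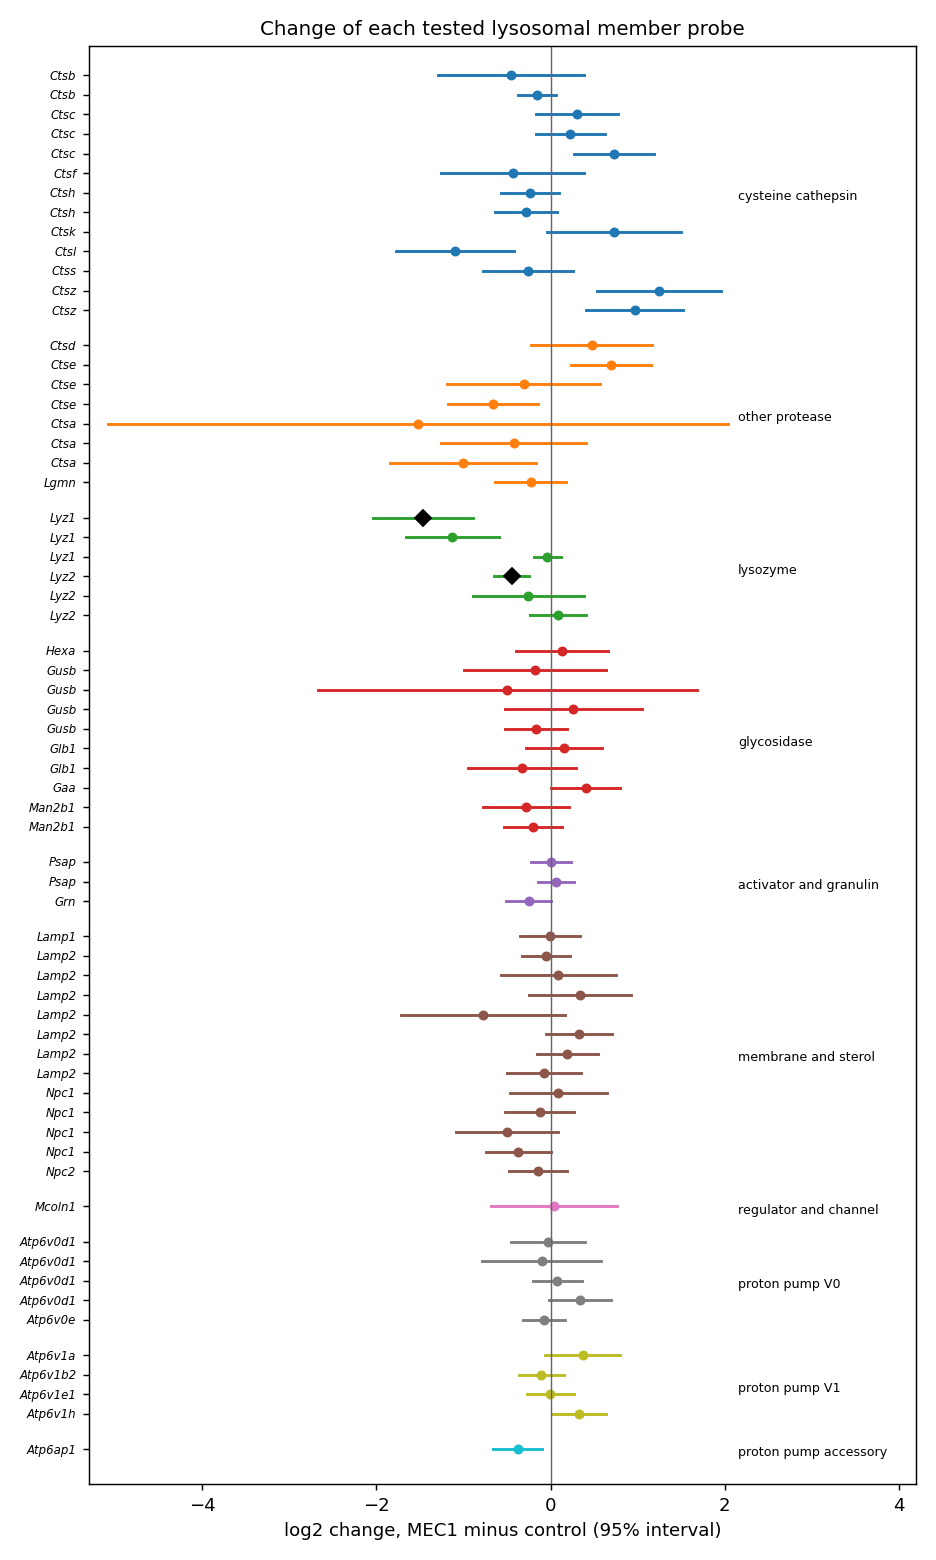
Log2 change, MEC1 minus control, of each of the 64 tested member probes (point) with its 95% interval from limma (line), grouped by role on the vertical axis with the gene beside each probe. The 2 black diamonds are the called probes, of Lyz1 at -1.47 and of Lyz2 at -0.45, and the 10 proton pump probes lie between -0.38 and 0.37.

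The 33 genes did not shift together in the MEC1 mice. Among control mice the median deviation from the control mean was 0.06 in A, 0.0078 in B and -0.056 in C. Among MEC1 mice it was 0.056 in D, -0.083 in E and -0.20 in F. Mouse D thus lay within the range of the control mice and mouse F lowest. Over all 9089 tested genes the medians of D, E and F were 0.089, -0.073 and -0.0018.

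**Figure D2:**
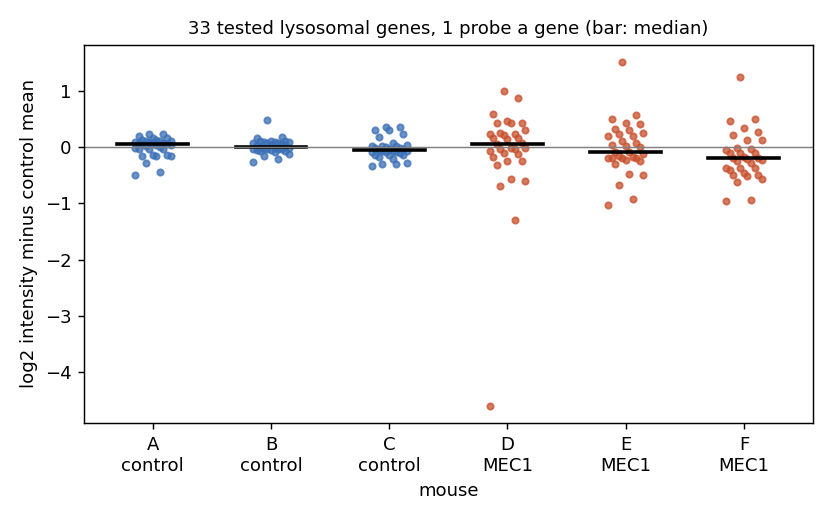
Log2 intensity minus the control mean (vertical axis) of the 33 tested lysosomal genes, 1 probe a gene, for each mouse, with blue points for control mice, red points for MEC1 mice and a black bar for the median of each mouse. Control points are centred on their own mean, so the scatter of the groups cannot be compared. The medians stay between -0.20 and 0.06, and the lowest point, in mouse D, is Ctsa.

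Lysozyme gave the only calls, and its probes disagreed. The array annotation names 3 probes for Lyz1, the lysozyme of intestinal Paneth cells, and 3 for Lyz2, the lysozyme of macrophages and granulocytes. At probe ILMN_1247933 of Lyz1 log2 intensity was 8.21 in A, 7.98 in B and 8.22 in C, the control mice, against 6.88 in D, 6.79 in E and 6.34 in F, and values are given in this order from here on. All 3 MEC1 mice lay more than 1 log2 unit below the lowest control. The mean went from 8.14 ± 0.14 to 6.67 ± 0.29 (SD, n = 3 each), which is 2.77-fold lower (log2 change -1.47 ± 0.25, SE; limma adjusted p = 0.0323).

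The other Lyz1 probes differ in what they measured. ILMN_2736867 read 6.28, 6.31 and 5.81 in control mice and was detected on no MEC1 array (5.18, 4.97 and 4.87), so only a bound of at least 1.26-fold lower can be given, and it did not pass (limma adjusted p = 0.0562). The groups did not overlap, but the probe passed the filter through the control arrays alone, so this was close to fixed in advance. At ILMN_2878071 the values were 14.97, 14.86 and 14.88 in control and 14.90, 14.82 and 14.88 in MEC1 mice, which overlap, with a change of -0.04 and a 95% interval of -0.19 to 0.12. That interval excludes the changes of the other 2 probes.

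Lyz2 fell at ILMN_1252076, by 0.45 on the log2 scale. This probe read 15.28, 15.22 and 15.20 in control mice and 14.64, 14.77 and 14.96 in MEC1 mice, means of 15.24 ± 0.04 and 14.79 ± 0.16 (SD, n = 3 each). The groups did not overlap, and the probe was 1.36-fold lower (SE 0.09; limma adjusted p = 0.0491). Before normalization it read 45402 to 45576 on control arrays and 21344 to 28323 on MEC1 arrays, which were dimmer as a whole. Its control readings ranked 6, 9 and 10 from the top on arrays A, B and C, whose highest readings were 52308 to 53109. The files hold no saturation flag, and whether the signal was compressed near the top of the range was not tested. ILMN_2939681 of Lyz2 gave 13.38, 13.25 and 13.19 against 13.22, 13.67 and 13.17, a change of 0.08, and the dim ILMN_2766780 gave -0.26, with overlapping groups at both. Lyz1 and Lyz2 are close in sequence and the probe sequences were not used here, so which transcripts each probe reads is uncertain.

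The lysozyme calls rested on few arrays. The Lyz1 call was lost without control mouse A, B or C or MEC1 mouse E or F (adjusted p = 0.182, 0.169, 0.205, 0.0688 and 0.0597), with a change between -1.55 and -1.30, and it was kept without D (-1.57, adjusted p = 0.00517). The Lyz2 call was lost without A, B, C or E (adjusted p = 0.232, 0.201, 0.205 and 0.135) and kept without D or F (0.0247 and 0.0424). When the array's position on the chip was added to the fit, no member was called in limma (8 member probes, 12.5%, at an unadjusted p under 0.05, against 14.6% of all tested probes). Control arrays held the first 3 positions and MEC1 arrays the last 3, so position and group are hard to separate.

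Cysteine cathepsins, the papain-like proteases of the lysosome, were measured by 13 probes of 8 genes, and none was called. The largest change was that of Ctsz, cathepsin Z, a carboxypeptidase. Its 2 probes read 10.45, 10.31 and 10.07 (ILMN_2666007) and 10.60, 10.40 and 10.28 (ILMN_2839569) in control mice. In MEC1 mice they read 11.48, 12.21 and 10.86, and 11.29, 11.94 and 10.93. All 3 MEC1 mice lay above all controls at both probes, mouse E highest and mouse F lowest. The changes were 1.24 ± 0.31 and 0.96 ± 0.25 (SE), 2.36-fold and 1.95-fold, and did not pass (limma adjusted p = 0.103 and 0.0995). The second passed without mouse D (adjusted p = 0.044) and the first without mouse F (0.0424). Under median scaling the changes were 0.76 and 0.47 (adjusted p = 0.105 and 0.276).

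Ctsl, cathepsin L, an endopeptidase of the lysosome, lay on the other side. Its single probe read 6.72, 7.39 and 7.52 in control mice and 5.91, 6.17 and 6.26 in MEC1 mice, with no overlap. The change of -1.10 ± 0.30 (SE), 2.14-fold lower, did not pass (limma adjusted p = 0.114). Under median scaling the change was -1.54 and passed (adjusted p = 0.00701), but the median over all tested probes was then -0.48.

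Ctsc, cathepsin C, the dipeptidyl peptidase that activates granule serine proteases, was singled out after its values were seen. Its groups did not overlap at any of 3 probes, where 27.7% of all tested probes did not overlap (14.4% higher in MEC1 mice). ILMN_3008859 read 7.73, 7.91 and 7.89 in control and 8.46, 8.65 and 8.59 in MEC1 mice, a change of 0.73 ± 0.20 (SE; limma adjusted p = 0.119). The other probes gave 0.31 and 0.23, and none of the 3 passed. Under median scaling ILMN_3008859 gave 0.16 (adjusted p = 0.75) and the other probes -0.26 and -0.31, so the size of the first and the direction of the others depend on the scaling. Of the 7 myeloid progenitor markers 1 was called, the granule protease gene Prtn3, which was higher. Among all tested probes 1.54% were called (0.869% higher). The summed level of that list was 82948 to 91297 in control and 90445 to 99227 in MEC1 mice, ranges that overlap. Its part in the Ctsc values was not tested.

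Ctsk, cathepsin K, the collagenase of osteoclasts, read 6.39, 7.03 and 6.20 in control mice and 6.97, 7.05 and 7.79 in MEC1 mice. The groups overlapped and the change of 0.73 ± 0.34 (SE) did not pass (limma adjusted p = 0.27). Of 8 osteoclast markers, 5 were detected on no array, namely Atp6v0d2, Calcr, Dcstamp, Itgb3 and Ocstamp. The summed level of the list was 328 to 690 in control and 328 to 522 in MEC1 mice. The remaining cysteine cathepsins, Ctsb, Ctsf, Ctsh and Ctss, gave changes of -0.45 to -0.16 at 6 probes, none called (smallest adjusted p = 0.341).

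**Figure D3:**
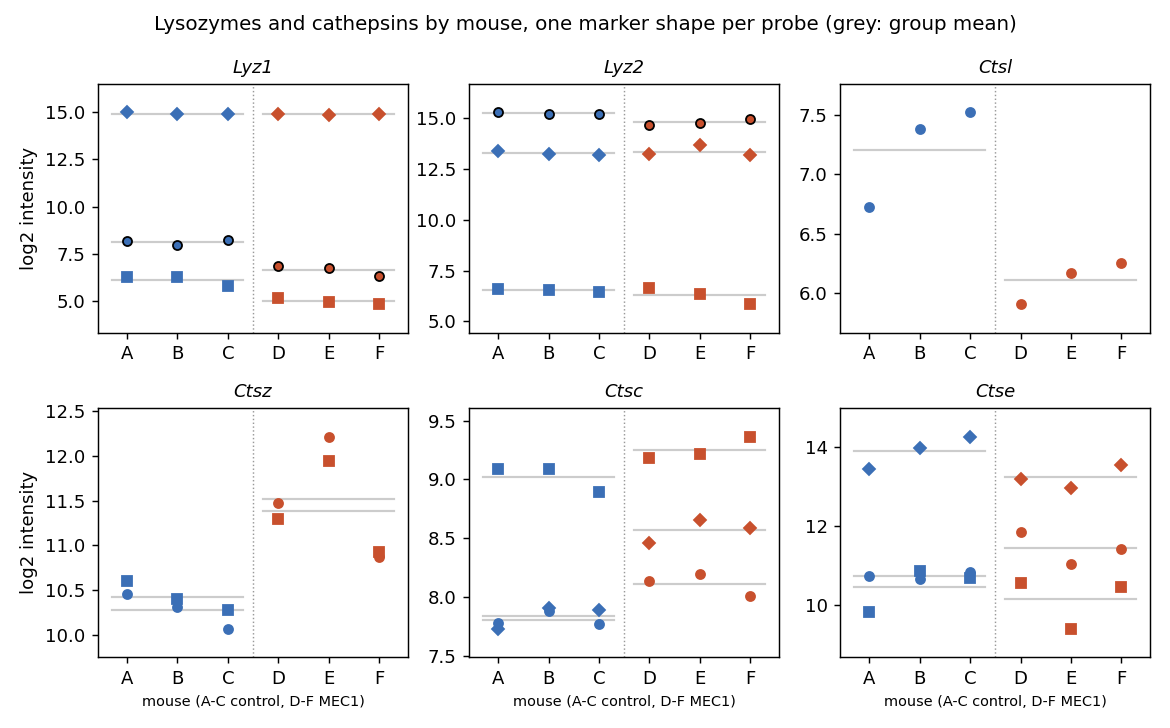
Log2 intensity (vertical axis) by mouse for the lysozymes Lyz1 and Lyz2 and the cathepsins Ctsl, Ctsz, Ctsc and Ctse, control mice in blue and MEC1 mice in red, with 1 marker shape per probe, grey lines for group means and black outlines for called probes. Both Ctsz probes are higher and Ctsl lower in all 3 MEC1 mice, while Lyz1, Lyz2 and Ctse each have probes that differ in their change.

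Among the other proteases, no probe of 8 was called. Ctse, cathepsin E, an aspartic protease of endosomes, had probes with changes of opposite sign. ILMN_1222071 read 10.73, 10.65 and 10.84 in control and 11.84, 11.03 and 11.43 in MEC1 mice, without overlap. ILMN_2960325 read 13.46, 13.99 and 14.26 and then 13.21, 12.98 and 13.54, with overlap, and ILMN_1228235 read 9.82, 10.85 and 10.67 and then 10.56, 9.39 and 10.46.
The changes were 0.69, -0.66 and -0.31 (limma adjusted p = 0.13, 0.173 and 0.676) and the difference between probes was not tested. Under median scaling they were 0.20, -0.89 and -0.84 (limma adjusted p = 0.696, 0.0396 and 0.234). The second thus passed as lower there, but the median over all tested probes was then -0.48. The summed erythroid markers were 65849, 76037 and 78554 in A, B and C and 56697, 31742 and 56669 in D, E and F. Mouse E was thus lowest at ILMN_2960325, at ILMN_1228235 and in the erythroid list, and the part of erythroid cells in the Ctse values was not tested.

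Ctsa, cathepsin A, a serine carboxypeptidase that also stabilises beta-galactosidase and neuraminidase, turned on a single mouse. ILMN_1213617 read 10.16, 9.89 and 10.39 in control mice, 5.54 in D, where it was not detected, and 10.38 and 9.94 in E and F. The change of -1.52 had a 95% interval of -5.08 to 2.04 and became 0.02 without mouse D. ILMN_3045359 read 6.77, 6.69 and 6.90 against 4.92, 6.17 and 6.27, with no overlap and the lowest value again in D (change -1.002 ± 0.37, SE; limma adjusted p = 0.191). It was detected on 2 MEC1 arrays, and the change was -0.57 without mouse D. At ILMN_2669714, in contrast, D was the highest of the 6 mice at 7.79, and E and F read 6.89 and 6.34. Ctsd, the major aspartic cathepsin, gave 0.47 (adjusted p = 0.417) at its only probe, which was detected on 2 control arrays and all MEC1 arrays. Lgmn, legumain, which cleaves after asparagine and activates other proteases, gave -0.23 (adjusted p = 0.498).

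Probes low in mouse D were no more frequent among the members than over the array. Of the 64 member probes, 4 read at least 1 log2 unit lower in mouse D than in both E and F (6.25%). The share was 6.87% of all tested probes and 8 of the 98 tested probes of other lysosome genes (8.16%). Of those 8, 5 were among the 18 probes of further pump genes (27.8%), and the other lists had 0 to 7.14%. The 4 member probes were the 2 Ctsa probes above, ILMN_2741114 of Gusb and ILMN_2608429 of Atp6v0d1. Gusb, beta-glucuronidase, read 8.53, 8.40 and 8.57 in control mice there, 5.86 in D and 9.28 and 8.85 in E and F, so that D was the lowest and E the highest of the 6. The change of -0.50 became 0.57 without D, and neither passed (limma adjusted p = 0.781 and 0.129). At the other Gusb probes D lay within 1 unit of the control mean, and their changes were -0.18, 0.26 and -0.17.

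**Figure D4:**
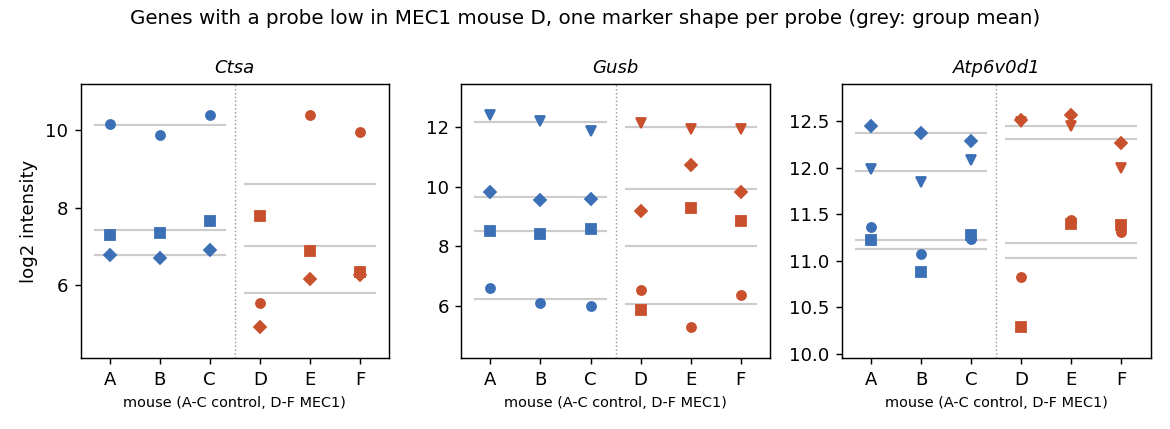
Log2 intensity (vertical axis) by mouse for Ctsa, Gusb and Atp6v0d1, control mice in blue and MEC1 mice in red, with 1 marker shape per tested probe and grey lines for group means. Single probes drop in mouse D, to 5.54 at Ctsa, 5.86 at Gusb and 10.29 at Atp6v0d1, while each gene also has a probe that is not low in D (7.79 at Ctsa, 12.14 at Gusb and 12.51 at Atp6v0d1).

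The glycosidases beside Gusb showed no call. Gaa, acid alpha-glucosidase, which degrades glycogen, read 10.24, 10.01 and 9.86 in control and 10.47, 10.60 and 10.24 in MEC1 mice, a change of 0.40 (limma adjusted p = 0.245) with control mouse A and MEC1 mouse F all but equal at 10.24. Hexa, which encodes the alpha subunit of beta-hexosaminidase, Glb1, beta-galactosidase, and Man2b1, alpha-mannosidase, gave changes between -0.33 and 0.15. The saposin precursor Psap, whose products activate sphingolipid hydrolases, gave changes of 0.0045 and 0.061 and 95% intervals of -0.23 to 0.24 and -0.15 to 0.27. Grn, progranulin, read 13.44, 13.36 and 13.19 in control and 13.09, 13.21 and 12.93 in MEC1 mice, a change of -0.25 that did not pass (adjusted p = 0.26).

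No membrane or sterol-handling member was called. Lamp1 gave -0.01 with a 95% interval of -0.36 to 0.33. Lamp2, which lines the lysosome and takes part in chaperone-mediated autophagy, was read by 7 probes with changes of -0.78 to 0.33, none called. The lowest belonged to ILMN_2577206, which read 8.25, 7.13 and 6.99 in control and 6.83, 7.17 and 6.04 in MEC1 mice. Control mouse A stood above the other control mice there, and the groups overlapped. Npc1 and Npc2, which move cholesterol out of the lysosome, gave changes of -0.50 to 0.09 at 5 probes. The groups did not overlap at 2 Npc1 probes (-0.50 and -0.37, limma adjusted p = 0.315 and 0.256). Among all tested probes 27.7% did not overlap (13.3% lower in MEC1 mice).

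Tfeb, the transcription factor of lysosome genes, had a probe detected on 0 control and 2 MEC1 arrays and another detected on none, so its level was not measurable at this brightness. Mcoln1, the lysosomal calcium channel TRPML1 and a TFEB target, read 7.23, 7.48 and 7.42 in control and 7.96, 7.48 and 6.80 in MEC1 mice. The MEC1 mice spanned the control range on both sides, and the change was 0.04 ± 0.32 (SE; limma adjusted p = 0.955).

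The tested proton pump members changed by less than 2-fold throughout. None of 10 probes of 7 genes was called, and all changes lay between -0.38 and 0.37. For all 10 the 95% interval lay within 2-fold (from -0.78 to 0.80 at the widest bounds). This held for 59.9% of all tested probes and for 11 of 18 probes of further pump genes (61.1%), 5 of which read low in mouse D. The groups did not overlap at 3 of the 10 (30%), against 27.7% of all tested probes and 11.1% of those 18. In the membrane sector, the 4 probes of Atp6v0d1, a subunit that links the sectors, gave -0.03, -0.10, 0.07 and 0.34, and Atp6v0e gave -0.08. In the catalytic sector, Atp6v1a, which binds ATP, read 9.87, 9.72 and 9.34 in control and 9.87, 10.05 and 10.10 in MEC1 mice, a change of 0.37 (limma adjusted p = 0.312) that was -0.18 under median scaling. Mouse D lay only just above mouse A there. Atp6v1h, a regulatory subunit, read 11.06, 11.15 and 10.96 against 11.52, 11.31 and 11.32, without overlap (0.33, adjusted p = 0.237). Atp6v1b2 and Atp6v1e1 gave -0.11 and -0.0042. Atp6ap1, an accessory subunit needed for assembly, read 13.24, 13.28 and 13.30 in control and 13.15, 12.79 and 12.75 in MEC1 mice, all lower. Its change of -0.38 ± 0.12 (SE) did not pass (adjusted p = 0.156), and passed without mouse D at -0.50 (adjusted p = 0.02).

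Other genes of the pathway were followed as well. Of 76 further lysosome genes, 69 had a named probe and 62 were tested, with 98 probes. Of these probes 1 was called lower and none higher, where 1.54% of all tested probes were called (0.869% higher and 0.668% lower). The median log2 change of these genes was -0.0047 with 29 genes above 0 and 33 below. The called gene was Ids, iduronate 2-sulfatase, which degrades heparan and dermatan sulfate. It read 10.72, 10.86 and 10.80 in control and 9.77, 9.77 and 10.04 in MEC1 mice, a change of -0.94 ± 0.16 (SE), 1.91-fold lower (limma adjusted p = 0.0288), with every MEC1 mouse below every control. The call was lost without control mouse A, B or C or MEC1 mouse E (adjusted p = 0.161, 0.184, 0.18 and 0.0766), with the change between -0.97 and -0.89.

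With the brightest tested probe for each gene, the largest changes in each list of these genes did not pass. Among further pump subunits they were 0.54 for Tcirg1 and -0.39 for Atp6v0a1, both isoforms of the membrane subunit a. Probes other than a gene's brightest reached further there, to -0.77 for Atp6ap2 (adjusted p = 0.624). Among hydrolases they were 0.57 for Galc, which degrades galactosylceramide, and -1.10 for Gla, alpha-galactosidase, where mouse D was lowest at 4.99. Among membrane proteins they were 0.39 for the chloride transporter Clcn7 and -0.71 for the metal transporter Slc11a1. In the delivery list they were 0.99 for Nagpa, which uncovers the mannose 6-phosphate tag, and -0.33 for Igf2r, the receptor of that tag. Among regulators, Lamtor1, which anchors the Ragulator complex to the lysosome, gave 0.78 and Flcn, folliculin, gave -0.73, both without overlap of the groups (limma adjusted p = 0.121 and 0.105).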

How the data were processed

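Total RNA was labelled as biotinylated cRNA, per the labels' protocols, and 1 array was made per mouse, all 6 on 1 chip. Per the file headers, the authors' raw table pairs each probe's mean bead intensity (AVG_Signal, not normalized) with its detection p-value, as deposited. The submitters' processing notes name GenomeStudio. A second deposited table holds processed intensity values on a linear scale with medians of 100.7 to 100.8, whose ranks match the raw table (Spearman's rho of 1). Its normalization is not stated in the sources used here. On each array its sorted values lay within 1.7 of the mean of the sorted raw values, as after quantile normalization without background correction. It served as an alternative that nearly repeats the one without background correction (Lyz1 probe ILMN_1247933, limma adjusted p = 0.0305 and 0.0309).

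Intensities were normalized by neqc (limma 3.58.1, R 4.3.3), which corrects background with parameters inferred from detection p-values, adds 16, quantile-normalizes and takes log2. Probes with a detection p under 0.05 on at least 3 of 6 arrays were tested by lmFit and eBayes (trend, robust), two-sided, with Benjamini-Hochberg adjustment over all 16460. The steps were tested on simulated arrays. Symbols were updated through Entrez IDs, giving 34885 probes with 1 symbol, 18 with several and 10378 unnamed here. The brightest tested probe stands for a gene where 1 probe is used. A bound for a probe undetected in a group uses each array's lowest detected value.

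Named members have a called probe, a change of at least 1 on the log2 scale, probes whose changes differ by at least 1, or the largest change of their role. Of the further lysosome genes, called ones and the largest change either way in each list are named. Members and lists were chosen with earlier results of these data known. Letters differ between groups, so mice were not paired.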

Additional observations from a re-analysis of the deposited data

How the results depend on the processing

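The count of called member probes, 2, was 7 under median scaling (0 higher, 7 lower), 1 with eBayes without trend and robust, 0 with chip position as a covariate and 0 to 5 when 1 mouse was left out (0 without A, B, C or E, 5 without D). For the other lysosome genes, 1 called probe became 9 under median scaling, 0 without trend and robust, 0 with chip position and 0 to 5 with 1 mouse left out. The median change of member genes was -0.08, against -0.02 over all tested probes. Under median scaling it was -0.41, 0.08 above the -0.48 of all tested probes. With chip position it was 0.24, against 0.07 over all tested probes, and with 1 mouse left out it lay between -0.12 and -0.05. The member medians use 1 probe a gene, the others every tested probe. For the other lysosome genes the median change was -0.51 under median scaling, 0.15 with chip position and -0.11 to 0.0098 with 1 mouse left out. Over all tested probes, 143 calls higher and 110 lower became 130 and 1981 under median scaling, 48 and 47 without trend and robust, 0 with chip position (2397 at an unadjusted p under 0.05), 2 and 3 without A, and 698 and 520 without D. No paired analysis was possible because the groups share no mouse letters.

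Some changes of named probes turned sign, and the cause was not tested. Under median scaling these were 0.044 for Lyz1 (ILMN_2878071), -0.16 for Lyz2 (ILMN_2939681), -0.28 for Gusb, -0.24, -0.23, -0.12 and -0.31 for Lamp2, -0.50 for Mcoln1, -0.31 and -0.073 for Atp6v0d1 and -0.18 for Atp6v1a. With chip position they were 0.40 for Ctsa, 0.039 for Lyz1, 0.46 for Lyz2, 0.40, -0.059 and 0.37 for Gusb, 0.055 for Grn, and 0.76 and -0.037 for Lamp2. With 1 mouse left out the ranges were -2.40 to 0.021 for Ctsa, -0.63 to 0.063 for Ctse, -0.076 to 0.17 for Lyz2, -0.42 to 0.20, -1.14 to 0.57 and -0.14 to 0.62 for Gusb, -0.14 to 0.012, -0.070 to 0.36 and -0.24 to 0.10 for Lamp2, -0.24 to 0.34 for Mcoln1, and -0.15 to 0.15 and -0.29 to 0.27 for Atp6v0d1.

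The Lyz1 call had a limma adjusted p under 0.05 in 7 of 13 alternatives (0.00101 to 0.384) and the Lyz2 call in 3 of 13 (0.0247 to 0.234). Lyz1 probe ILMN_2736867, not called in the main fit, passed in 5 of 12 (0.00396 to 0.587). Without background correction, with the authors' processed values or without the filter, the 2 called member probes were both of Lyz1, ILMN_2736867 in place of the Lyz2 probe. Dim probes such as those of Tfeb have no measurable change here.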
